A study of Mus musculus with 40 samples.

Results

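The RGD peptide was compared with its motif-altered control peptide in the myeloid cells of GL261 gliomas, without the vehicle group that both peptides share as a reference elsewhere. The samples were taken by their labels: 3 7aaRGD and 3 7aaRAE samples at 21 days post-implantation (DPI), which are 6 of the 40 samples of the series. The mice were male C57BL/6 animals of 10 to 12 weeks whose striatum had been implanted with GL261 tdTomato+luc+ cells, a murine glioma line (the sample labels call it human). An osmotic pump delivered the peptide into the tumor at 2 mg/ml in water, and vehicle mice received water alone. The 2 peptides differ in the motif: arginine-glycine-aspartic acid in 7aaRGD was changed to arginine-alanine-glutamic acid in 7aaRAE. Each sample was RNA of CD11b+ cells sorted from the tumor-bearing hemispheres of 2 animals, so the sort held microglia, infiltrating monocytes and macrophages, and other CD11b+ leukocytes together. The same 2 peptides were also compared in 3 and 3 samples from athymic nude Foxn1nu mice carrying U87-MG RFP+ cells, a human glioblastoma line. These mice were also male and of 10 to 12 weeks, with the same peptide concentration, day and pooling of 2 animals. Levels are also given for 3 vehicle samples of the GL261 experiment and for 3 samples of naïve C57BL/6 mice of that age, without tumor or peptide. The values below are RPKM (reads scaled to the length of the transcript and to the size of the library), and every difference is the mean of log2(RPKM + 1) in 7aaRGD minus that in 7aaRAE samples.

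Integrins are receptors made of an alpha and a beta subunit that hold cells to extracellular matrix and signal through focal adhesion kinases. A subset of them, among which are αvβ3 and αvβ5, bind the tripeptide Arg-Gly-Asp exposed by ligands such as fibronectin, osteopontin and lactadherin. In gliomas, osteopontin and lactadherin are known as tumor-derived ligands that act on microglia and macrophages through these integrins, and peptides carrying the motif compete for the binding site.

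The sequences that code for the motif are shown because they mark which of the ligands measured here carry what 7aaRGD imitates. The list was made of integrin ligands of the RGD type, so a high share with the motif was given by that choice. Of 21562 coding genes, 7.25% hold an Arg-Gly-Asp codon triplet in the coding sequence of GENCODE release 21 on mm10. Of the 17 ligands in the list 13 do. The 7 of them that were tested here are given 5′ to 3′ on the coding strand, with the 9 bases of the triplet in capitals and 9 bases on each side.
Spp1 (osteopontin), chr5:104439481-104439489, plus strand, exon 7: cccaacggcCGAGGTGATagcttggct
Mfge8 (lactadherin), chr7:79145308-79145316, minus strand, exon 3: gacacacagCGTGGGGACatcttcacc
Fn1 (fibronectin), chr1:71606746-71606754, minus strand, exon 30: gtcactggcCGTGGGGACagtccagca
Fn1, another triplet, chr1:71597443-71597451, minus strand, exon 40: catgttcccAGGGGAGACgtagactac
Thbs1 (thrombospondin 1), chr2:118122882-118122890, plus strand, exon 18: ggtgatggcCGAGGTGACgcctgcaaa
Tgfbi (TGF-β-induced protein), chr13:56637155-56637163, plus strand, exon 15: ccacaagaaCGAGGAGATgagctggca
Tgfb1 (the latency-associated part of TGF-β1), chr7:25697142-25697150, plus strand, exon 5: cccaaacgtCGGGGCGACctgggcacc
Npnt (nephronectin), chr3:132904665-132904673, minus strand, exon 10: cagaaacccAGAGGAGATgtgttcatt
The stated positions are those of the triplet, and exons are counted along the transcript. Ccn1 and Adam15, the other tested ligands, hold no such triplet in the mouse coding sequence, and a triplet in the sequence is a description of the letters, not evidence that the motif is exposed.

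The sorted cells expressed the markers of their gate in all 6 samples. Itgam, which encodes CD11b, lay between 58.1 and 67.5 RPKM, Ptprc (CD45) between 44.3 and 56.9, Csf1r between 714 and 888, and Aif1 between 169 and 197. Between 9327 and 9570 protein-coding genes reached 1 RPKM in a sample. RGD replicate 3 stood farthest from its group, with a residual SD of 0.136 on the log2 scale against 0.0816 to 0.117 in the other 5 samples, and it held the highest of the 6 values in 33.4% of genes. The deposited values carry no depth, so none of the differences can be weighed by read number. Each sample pooled 2 animals, and the p-values measure the spread between such pools that the deposited values still hold. These values had been altered after normalization, and how far that changed the spread was not tested.

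The question was which genes of glioma-associated CD11b+ cells respond to the motif itself. Of 9475 protein-coding genes tested with limma, 6 had a Benjamini-Hochberg adjusted p under 0.05, which is 0.0633%. Transthyretin, Serpina3n, Jam3, Adamts1 and Maged1 rose (0.0528% of genes) and Saa3 fell (0.0106%) in 7aaRGD relative to 7aaRAE samples. In each of these 6 genes the 3 and 3 samples did not overlap, as was so for 11.5% of all genes tested. Of the 6 genes 5 lay under 10 RPKM in the 7aaRGD samples, and Serpina3n and Saa3 have close paralogs with which the counting may split reads.

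Ttr, which encodes the thyroxine and retinol carrier transthyretin, is a product of choroid plexus epithelium in the brain (chromosome 18, 20665280 to 20674321, plus strand). It was at 95.3, 66.9 and 99.7 RPKM in the 7aaRGD samples and at 26.6, 19.5 and 33.3 RPKM in the 7aaRAE samples. Every 7aaRGD sample was at least at the double of any 7aaRAE sample. The difference was 1.69 ± 0.20 (SE), with a 95% interval from 1.22 to 2.16 and an adjusted p of 0.04998 (limma). The vehicle samples averaged 32.5 RPKM, and in naïve mice the gene varied widely, at 155 ± 150 RPKM (SD, n = 3).

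Saa3, an acute-phase serum amyloid A made by activated macrophages, was the gene that fell (chromosome 7, 46711998 to 46715700, minus strand). Its level was 9.28, 8.40 and 8.95 RPKM with 7aaRGD and 18.1, 15.0 and 19.9 RPKM with 7aaRAE. The 7aaRGD samples lay close together and all under the 7aaRAE samples, with a difference of −0.91 ± 0.10 (95% interval −1.14 to −0.68, adjusted p 0.0481 by limma). Vehicle samples averaged 13 RPKM, between both peptides.

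Maged1, an adaptor protein of neurotrophin receptor signalling, was at 8.34, 8.0 and 8.44 RPKM with 7aaRGD against 5.12, 5.40 and 4.90 RPKM with 7aaRAE. Its difference of 0.59 (95% interval 0.46 to 0.73) had the smallest unadjusted p of all genes, 8.51e-06, and an adjusted p of 0.0481 by limma. Jam3, a junctional adhesion molecule used in leukocyte transmigration, was at 2.29, 1.98 and 2.07 RPKM against 1.05, 1.08 and 0.867 RPKM. It differed by 0.64 (0.47 to 0.80), with an adjusted p of 0.0481 by limma. Both genes were lowest in vehicle samples, at 4.15 and 0.764 RPKM on average, and higher in naïve mice, at 25.6 and 6.89 RPKM.

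Adamts1, a secreted protease that cleaves versican and other proteoglycans, was at 2.54, 2.78 and 2.38 RPKM with 7aaRGD and at 1.24, 1.42 and 1.39 RPKM with 7aaRAE. Serpina3n, a serine protease inhibitor of reactive glia and the acute phase, was at 2.55, 3.00 and 2.37 RPKM against 1.37, 1.17 and 1.34 RPKM. In both, the lowest 7aaRGD sample was well above the highest 7aaRAE sample. The differences were 0.60 (0.44 to 0.76, adjusted p 0.0481) and 0.67 (0.48 to 0.85, adjusted p 0.04998) by limma. These levels are near the filter of 1 RPKM, where the added 1 makes a log2 difference smaller than the ratio of the levels.

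The 6 calls lay at the edge of the threshold, since the smallest adjusted p was 0.0481. No gene was called with median-of-ratios or upper-quartile factors or a pseudocount of 0.1 or 5, and without 1 sample there was 0 or 1 call (limma), which without RGD replicate 3 was none of the 6 genes. The directions held in all of these, with Ttr between 1.5 and 1.87 and Saa3 between −1.02 and −0.70.

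**Figure D1:**
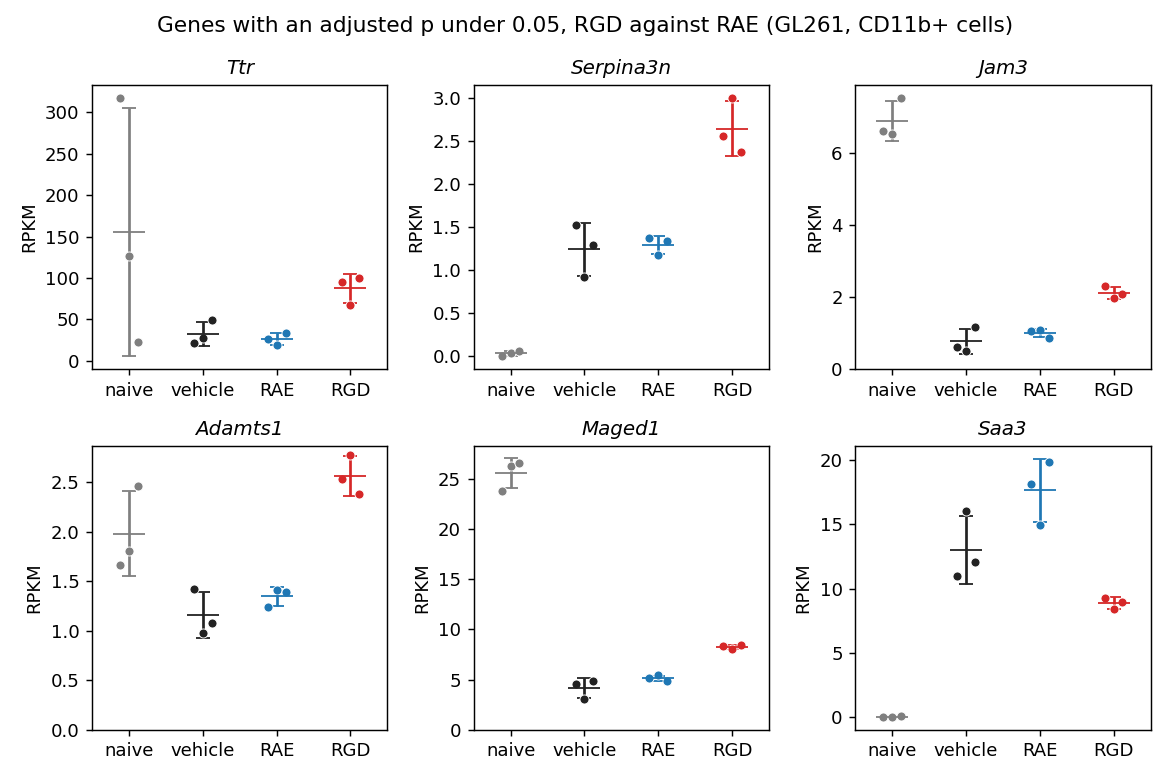
RPKM (vertical axis, linear, including 0) of the 6 genes with an adjusted p under 0.05, in naïve, vehicle, 7aaRAE (RAE) and 7aaRGD (RGD) samples of the GL261 experiment; points are samples, wide bars means and whiskers SD (n = 3). The 7aaRGD points lie apart from the 7aaRAE points in every panel, above them in 5 panels and below them for Saa3, where they lie between 8.40 and 9.28 RPKM.

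Most of the transcriptome differed little between the peptides on the log2(RPKM + 1) scale. For genes near 1 RPKM the added 1 makes a difference smaller than the ratio of the levels. The median level of the tested genes over the 6 samples was 7.51 RPKM. For 8883 genes (93.8%) the 95% interval of the difference lay within 0.5 of 0 on the log2 scale, and for 9426 (99.5%) within 1. Only 3 genes differed by more than 1 and 64 by more than 0.5, while the median half-width of an interval was 0.177. Differences inside those intervals were not detectable with 3 and 3 samples, so a gene that missed the threshold was not shown to be alike under both peptides.

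More genes leaned upwards than downwards. At an unadjusted p under 0.05 there were 609 genes (6.43%), of which 453 were higher (4.78% of genes tested) and 156 lower (1.65%) with 7aaRGD. The higher ones were 74.4% of the 609 on the deposited scale, 60.1% of those found after upper-quartile scaling and 44.2% after median-of-ratios scaling. They were 85.7% with no filter on low values and 61.4% with a mean of at least 5 RPKM. The balance between higher and lower genes thus depends on the scaling and on the filter. The median level over the 6 samples was 3.37 RPKM for the 453 higher genes and 9.04 RPKM for the 156 lower genes. The median difference over all genes was 0.02 on the deposited scale and −0.02 after median-of-ratios scaling. At any size, 58.3% of genes had higher values. The list counts below are to be read beside this share and those of 4.78% and 1.65%. With 1 residual degree of freedom less in the fit, 388 genes had an unadjusted p under 0.05, of which 291 were higher and 97 lower.

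**Figure D2:**
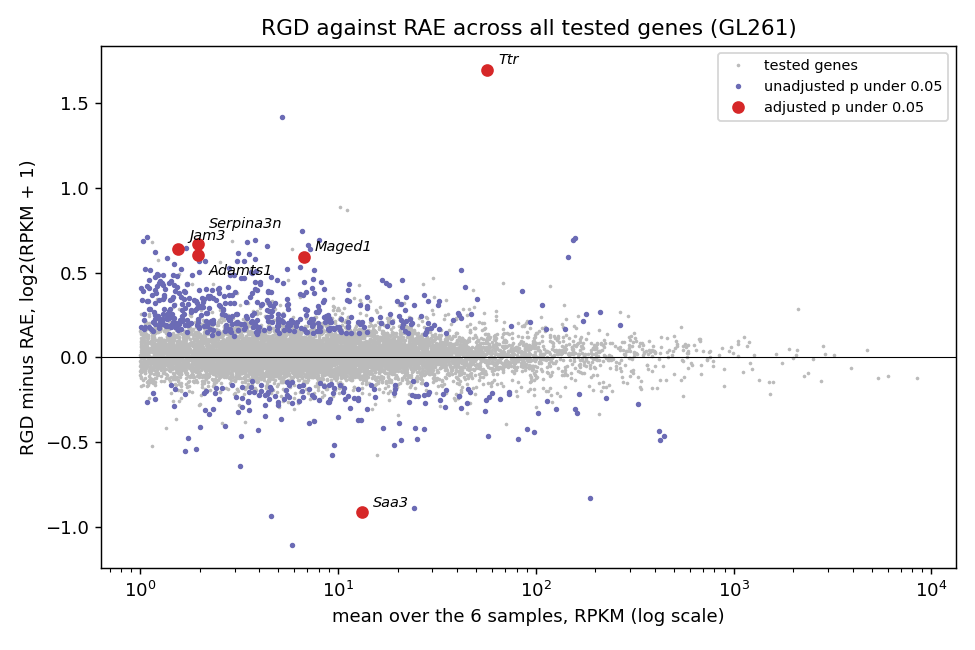
Difference between 7aaRGD and 7aaRAE (log2(RPKM + 1)) against the mean level (RPKM over the 6 samples, log axis) of each of the 9475 genes tested in GL261, in gray, with genes at an unadjusted p under 0.05 in blue and the 6 called genes in red with their names. All but 64 points lie within 0.5 of 0.

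The integrin subunits that can bind the motif did not differ detectably. Of 9 subunits, 5 were tested, 0 were called and 0 had an unadjusted p under 0.05 (6.43% of all genes), with a median difference of 0.04 against 0.02 over all genes. Itgb5, the β5 subunit and the most abundant of them, was at 236, 227 and 260 RPKM with 7aaRGD and 220, 207 and 229 RPKM with 7aaRAE, so the groups overlapped. Its difference was 0.14 (95% interval −0.04 to 0.32). Itgb3, the β3 subunit, was at 3.97, 3.47 and 4.98 RPKM against 3.05, 2.74 and 4.00 RPKM, a difference of 0.27 (−0.04 to 0.58). Its interval was the one of the 5 that reached past 0.5. Itgav, the αv partner of both, differed by 0.04 (−0.14 to 0.23), and Itgb1, the partner of most alpha subunits, by −0.08 (−0.24 to 0.08). Itga5, the alpha subunit of the fibronectin receptor, had a difference of 0.01 (−0.27 to 0.28) that turned below 0 under both other scalings. Itgb6, Itgb8, Itga8 and Itga2b stayed under a mean of 1 RPKM and were not tested.

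The ligands were less even. Of 17 ligands 9 were tested and 0 called, while 5 had an unadjusted p under 0.05, all of them higher with 7aaRGD (4.78% of all genes tested), and in 4 the groups did not overlap, again with higher values (7.92% of all genes). Their median difference was 0.17, and over the alternatives it lay between 0.08 and 0.23. Thbs1, a matrix protein that activates latent TGF-β and binds CD47 and CD36, was at 161, 198 and 216 RPKM with 7aaRGD and at 127, 114 and 112 RPKM with 7aaRAE. All 7aaRGD samples were above all 7aaRAE samples, and the difference was 0.69 (95% interval 0.43 to 0.95, adjusted p 0.145 by limma). Vehicle samples averaged 153 RPKM, between both peptides.

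Spp1, the osteopontin whose triplet is shown above, was at 172, 194 and 213 RPKM with 7aaRGD and at 90.4, 172 and 105 RPKM with 7aaRAE. RAE replicate 2 reached the lowest 7aaRGD sample, and the difference of 0.70 (0.21 to 1.20) had an adjusted p of 0.531 by limma. Mfge8, the lactadherin that bridges apoptotic cells to phagocytes, was at 4.14, 4.06 and 5.86 RPKM against 3.59, 3.23 and 3.80 RPKM, with a difference of 0.31 (0.04 to 0.59, adjusted p 0.702). Ccn1, a matricellular integrin ligand without the triplet, was at 2.19, 1.79 and 1.53 RPKM against 0.760, 1.03 and 0.870 RPKM. Its groups did not overlap and its difference was 0.58 (0.36 to 0.81, adjusted p 0.145 by limma). Ccn1 passed the filter on the mean level only through its 7aaRGD values. Tgfb1 differed by 0.17 (0.02 to 0.32, adjusted p 0.704 by limma), again without overlap.

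Fibronectin varied widely within both groups. Fn1 was at 161, 201 and 140 RPKM with 7aaRGD and at 122, 214 and 145 RPKM with 7aaRAE, so that each group spanned most of the other. Its difference of 0.09 had an interval from −0.39 to 0.56 and changed sign when RGD replicate 2 or RAE replicate 1 was left out. Tgfbi, the most abundant ligand, differed by −0.15 (−0.37 to 0.08), Npnt by −0.15 (−0.44 to 0.14) and Adam15 by 0.08 (−0.10 to 0.25).

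**Figure D3:**
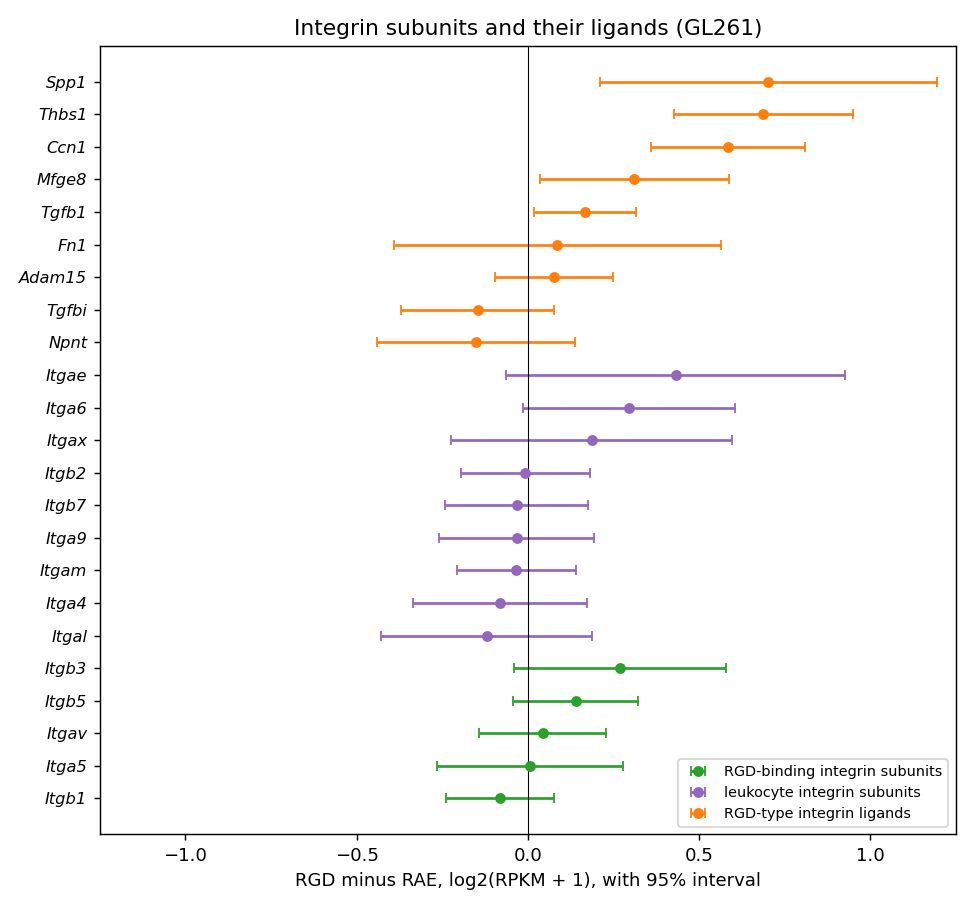
Difference between 7aaRGD and 7aaRAE (log2(RPKM + 1), horizontal axis) with its 95% interval for the 5 tested RGD-binding integrin subunits, the 9 tested leukocyte integrin subunits and the 9 tested ligands. Intervals of the subunits all cross 0, while those of Spp1, Thbs1, Ccn1, Mfge8 and Tgfb1 lie above it.

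Transcripts of focal adhesion components and of the kinases downstream of integrins were compared next. Of 35 such genes 31 were tested, 0 had an unadjusted p under 0.05, and 30 of 31 intervals lay within 0.5 of 0. Their median was 0.01, and −0.03 after median-of-ratios scaling. Tns3, a tensin that links integrin tails to actin, had the smallest p of them, at −0.16 (−0.34 to 0.01), and its groups did not overlap. Vcl, vinculin, was at 0.16 (−0.02 to 0.34), and Parvb, a parvin, at 0.10 (−0.05 to 0.26). Of the leukocyte integrins 9 of 12 were tested, with 0 at an unadjusted p under 0.05, a median of −0.03 and 6 of 9 intervals within 0.5 of 0. Itga6 differed by 0.30 (−0.01 to 0.61), Itgae by 0.43 (−0.06 to 0.93) and Itgax by 0.19 (−0.23 to 0.60).

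In the TGF-β list, 2 of 14 tested genes were higher and 1 lower at an unadjusted p under 0.05, with a median of 0.03 that was −0.01 after median-of-ratios scaling. Smad3, a transducer of TGF-β receptors, differed by 0.23 (0.02 to 0.43, adjusted p 0.716 by limma) and the inhibitory Smad6 by −0.29 (−0.54 to −0.04, adjusted p 0.682). Among 19 tested adhesion and transmigration genes 11 had higher values, and 4 were higher and 2 lower at an unadjusted p under 0.05. Anpep, the aminopeptidase CD13, was at 82.0, 75.2 and 91.0 RPKM with 7aaRGD and at 93.6, 130 and 116 RPKM with 7aaRAE. The groups did not overlap, and the difference was −0.44 (−0.73 to −0.15, adjusted p 0.516 by limma). Pecam1, CD31, differed by −0.39 (−0.66 to −0.11) and Alcam, CD166, by 0.31 (0.08 to 0.54). Of 16 matrix proteases and inhibitors 9 had higher values and 1 an unadjusted p under 0.05, Mmp8 at 0.27 (0.02 to 0.52), and the shedding proteases Adam10 and Adam17 both differed by −0.13 with intervals that crossed 0. Of 11 angiogenic factors 2 had an unadjusted p under 0.05, the growth factor gene Pdgfb at 0.20 (0.03 to 0.36) and the VEGF co-receptor gene Nrp2 at −0.25 (−0.44 to −0.07).

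Arginase 1 had lower values with 7aaRGD in all samples. Arg1, which consumes arginine and marks tumor-supportive macrophages, was at 95.6, 122 and 201 RPKM with 7aaRGD and at 204, 243 and 265 RPKM with 7aaRAE. RGD replicate 3 came within a few RPKM of RAE replicate 1 and the groups just did not overlap. The difference was −0.83 with an interval from −1.38 to −0.27, and its adjusted p of 0.516 by limma missed the threshold. The vehicle samples ranged from 201 to 1224 RPKM and averaged 757 ± 517 RPKM (SD, n = 3), so the lowest of them lay at the highest 7aaRGD sample.

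Other genes of arginine use lay on both sides. Of 10 genes of arginine metabolism and itaconate, 0 were called. At an unadjusted p under 0.05, 4 were lower (1.65% of all genes) and 2 higher (4.78%). Their median of −0.16 lay between −0.26 and −0.10 over the alternatives. Slc7a2, an arginine transporter, was at 6.05, 7.28 and 7.98 RPKM with 7aaRGD against 8.89, 16.3 and 9.18 RPKM, a difference of −0.58 (−1.05 to −0.11, adjusted p 0.672 by limma). Odc1, the enzyme that makes putrescine from ornithine, was at 23.7, 23.3 and 19.99 RPKM against 16.6, 19.0 and 17.0 RPKM, which is 0.33 (0.13 to 0.53, adjusted p 0.430). Neither pair of groups overlapped, and the directions were opposite.

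Alternative activation as a list showed no common direction. Of 14 tested genes 2 were lower and 0 higher at an unadjusted p under 0.05, and the median of 0.03 turned below 0 with median-of-ratios scaling or without RGD replicate 3 or RAE replicate 2. Pdcd1lg2, the PD-1 ligand PD-L2, was at 11.5, 16.1 and 19.8 RPKM with 7aaRGD and at 22.4, 21.6 and 23.5 RPKM with 7aaRAE, with a difference of −0.51 (−0.89 to −0.14, adjusted p 0.545 by limma). All 7aaRGD samples were lower, RGD replicate 1 by the most. Chil3 and Mrc1, common markers of this state, differed by −0.01 (−0.51 to 0.49) and 0.04 (−0.80 to 0.88), and both changed sign with a sample left out. Clec10a, a C-type lectin, was at 0.34 (−0.06 to 0.74).

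In the complement and Fc receptor list 21 genes were tested. At an unadjusted p under 0.05, 3 were lower (1.65% of all genes) and 0 higher (4.78%). C3, the central complement component, was at 388, 389 and 339 RPKM with 7aaRGD and at 464, 470 and 617 RPKM with 7aaRAE. Its groups did not overlap and its difference was −0.47 (−0.74 to −0.19, adjusted p 0.430 by limma). Cd36, a scavenger receptor for lipids and thrombospondin, was at 7.65, 9.01 and 6.32 RPKM against 10.4, 12.8 and 10.8 RPKM, or −0.51 (−0.79 to −0.24, adjusted p 0.371). Cfb, of the alternative pathway, differed by −0.32 (−0.55 to −0.08). The list as a whole had a median of −0.01.

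**Figure D4:**
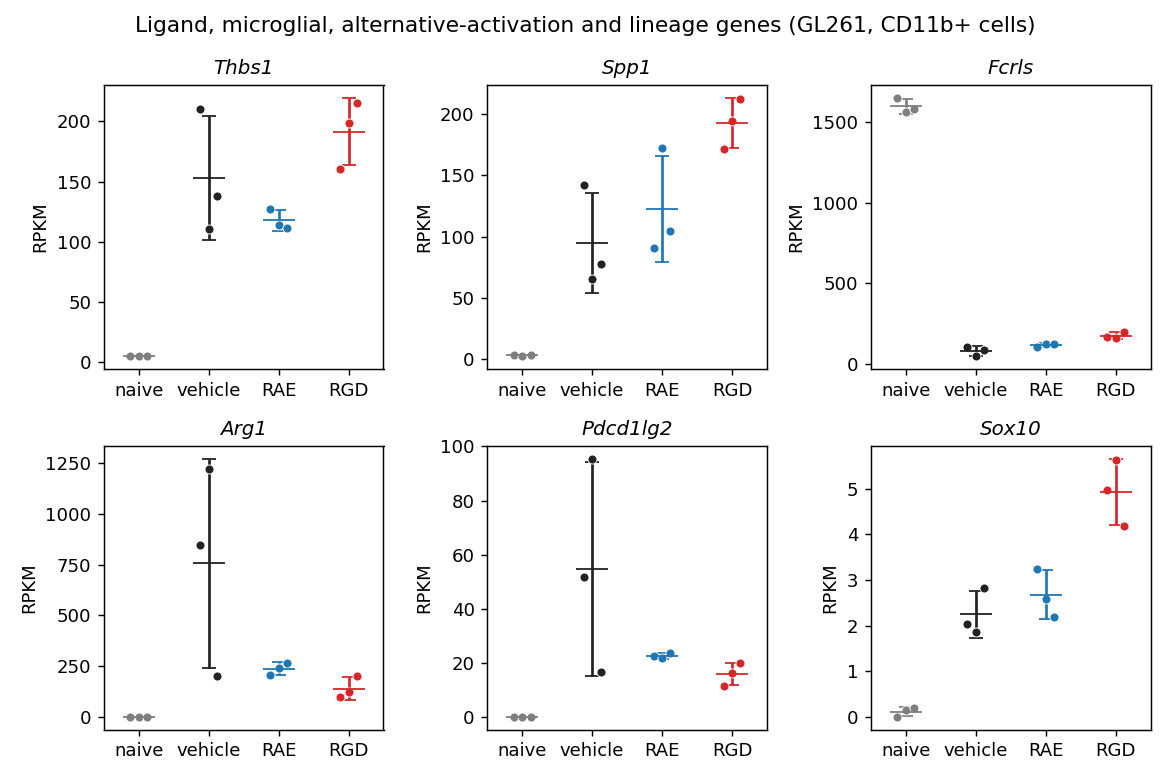
RPKM (vertical axes, linear) of Thbs1, Spp1, Fcrls, Arg1, Pdcd1lg2 and Sox10 in naïve, vehicle, 7aaRAE (RAE) and 7aaRGD (RGD) samples; points are samples, wide bars means and whiskers SD (n = 3). None of these passed the adjusted threshold, and the 7aaRGD and 7aaRAE samples overlap for Spp1 alone, where RAE replicate 2 was at 172 RPKM.

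Genes of homeostatic microglia mostly had higher values with 7aaRGD. Of 19 tested genes 17 were higher (58.3% of all genes), but 2 had an unadjusted p under 0.05 and 0 were called. Their median of 0.23 lay between 0.09 (without RAE replicate 2) and 0.34. Fcrls, a microglial Fc receptor-like scavenger receptor, was at 169, 161 and 198 RPKM with 7aaRGD and at 104, 120 and 124 RPKM with 7aaRAE. The groups did not overlap and the difference was 0.59 (0.36 to 0.83, adjusted p 0.160 by limma). Naïve mice held 1600 RPKM and vehicle samples 80.4 RPKM, so both peptide groups lay near the vehicle end of that range. Selplg, the P-selectin ligand, differed by 0.26 (0.01 to 0.50), Tmem119 by 0.27 (−0.13 to 0.66) and Gpr34 by 0.23 (−0.05 to 0.52). Summed over the 19 genes, RGD replicate 3 was the highest of the 6 samples and RAE replicate 2 the lowest. In these sorted mixtures a change in the number of cells of a type cannot be told apart from a change in RNA per cell.

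Among 18 genes of infiltrating monocytes and macrophages 1 was higher at an unadjusted p under 0.05 (Thbs1), with a median of 0.06. S100a4 and S100a10 were at 0.29 (−0.02 to 0.59) and 0.21 (−0.01 to 0.44). The 20 genes of disease-associated microglia and lipid handling had a median of 0.03, or −0.02 after median-of-ratios scaling, and 2 genes at an unadjusted p under 0.05, Spp1 and the tetraspanin gene Cd9 at 0.21 (0.01 to 0.41). Border-associated macrophage genes were higher in 8 of 9 tested (58.3% of all genes), with a median of 0.28. In that list Stab1, a scavenger receptor, was at 0.31 (0.04 to 0.58) and Pf4, a platelet-type chemokine made by these macrophages, at 0.44 (0.06 to 0.83). Csf1, the growth factor of microglia, differed by 0.18 (−0.03 to 0.40).

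Granule genes of neutrophils leaned upwards. Of 13 tested neutrophil genes 5 were higher at an unadjusted p under 0.05 (4.78% of all genes) and 0 lower (1.65%). Their median was 0.27. Camp, the cathelicidin, was at 3.42, 3.45 and 3.54 RPKM with 7aaRGD and at 1.60, 2.05 and 2.78 RPKM with 7aaRAE, a difference of 0.52 (0.24 to 0.81, adjusted p 0.367 by limma). Ngp and Ltf, further granule proteins, differed by 0.69 (0.18 to 1.20) and 0.57 (0.20 to 0.94). RAE replicate 3 held the highest values of its group for all of these, and Ngp overlapped.

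The lymphoid genes turned on single samples. Of 10 tested genes of NK cells 9 were higher, with a median of 0.47 (0.22 without RAE replicate 1), and 2 had an unadjusted p under 0.05 on the higher side. Gzmb, granzyme B, was at 20.3, 12.7 and 7.57 RPKM with 7aaRGD and at 3.16, 9.19 and 8.37 RPKM with 7aaRAE. RGD replicate 1 was the highest and RAE replicate 1 the lowest of the 6, while the remaining samples mixed, and the difference of 0.88 had an interval from −0.03 to 1.80. Klrd1, the CD94 receptor, was more even at 4.29, 4.74 and 5.31 RPKM against 3.30, 3.76 and 2.81 RPKM, or 0.43 (0.20 to 0.66, adjusted p 0.357 by limma). Klrb1c differed by 0.29 (0.04 to 0.54). Ccl5, a chemokine of NK and T cells and of macrophages, went the other way at −0.43 (−0.76 to −0.10, adjusted p 0.618).

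T cell genes were at low levels, 5 of 15 being tested, with all 5 higher and 0 at an unadjusted p under 0.05. The 15 genes summed to 20.3, 13.4 and 8.88 RPKM in the 7aaRGD samples and to 4.39, 11.96 and 8.85 RPKM in the 7aaRAE samples. Both B cell genes tested, Cd22 and Cd79b, had intervals that crossed 0, as did Cd8b1 at 0.68 (−0.07 to 1.43) and Lck at 0.49 (−0.05 to 1.04). Of 12 dendritic cell genes 8 had higher values and 1 an unadjusted p under 0.05, Kmo at 0.31 (0.08 to 0.53). Ltb, a lymphotoxin subunit, was at 6.02, 5.92 and 8.24 RPKM with 7aaRGD and at 4.37, 4.12 and 4.55 RPKM with 7aaRAE, without overlap, at 0.52 (0.26 to 0.78, adjusted p 0.283 by limma).

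Genes of several cell types that the CD11b gate should not hold were detected, some with higher values in 7aaRGD samples. The 18 genes of a choroid plexus list, which was put together after Ttr had been seen, summed to 110, 77.5 and 115 RPKM in the 7aaRGD samples and to 30.0, 23.1 and 39.3 RPKM in the 7aaRAE samples, and 17 of the 18 had a higher mean with 7aaRGD. Only 3 of them reached the filter, and 3 were under 0.1 RPKM in all 6 samples. Enpp2, the autotaxin that makes lysophosphatidic acid, was at 8.90, 6.06 and 9.12 RPKM against 1.98, 1.90 and 3.29 RPKM. It differed by 1.42 (1.00 to 1.84), with an adjusted p of 0.0550 by limma just over the threshold. Igfbp2, a binding protein of insulin-like growth factors, was at 1.78, 1.40 and 1.58 RPKM against 0.514, 0.457 and 0.782 RPKM, or 0.71 (0.49 to 0.93, adjusted p 0.0575 by limma). Its 7aaRAE values were all under 1 RPKM, so it passed the filter only through the 7aaRGD samples. The groups overlapped in none of Ttr, Enpp2 and Igfbp2, and in naïve mice the list sum ranged from 25.8 to 361 RPKM with no treatment at all. The part of such cells in the differences of Ttr, Enpp2 and Igfbp2 was not tested.

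Oligodendrocyte-lineage genes had higher values as well, at smaller size. The 15 genes summed to 64.5 to 71.5 RPKM with 7aaRGD and 52.5 to 59.5 RPKM with 7aaRAE. Of 8 tested, 4 were higher (4.78% of all genes) and 0 lower (1.65%) at an unadjusted p under 0.05. The median was 0.37, and 0.11 without RGD replicate 1. Sox10, the transcription factor of the lineage, was at 4.97, 5.64 and 4.17 RPKM with 7aaRGD and at 3.25, 2.58 and 2.18 RPKM with 7aaRAE. Its groups did not overlap and its difference was 0.69 (0.41 to 0.98, adjusted p 0.160 by limma). Gpr17, a receptor of differentiating precursors, differed by 0.68 (0.29 to 1.08), and Olig1 by 0.64 (0.13 to 1.14). Naïve mice held 0.11 RPKM of Sox10 and vehicle samples 2.25 RPKM.

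Neural progenitor and glioma-type genes, again listed after values had been seen, summed to 30.1 to 33.8 RPKM with 7aaRGD and 21.5 to 24.1 RPKM with 7aaRAE. Of 7 tested, 3 were higher at an unadjusted p under 0.05, namely Sox2 at 0.49 (0.20 to 0.77), Nes at 0.39 (0.18 to 0.61) and Sox4 at 0.39 (0.19 to 0.60). GL261 cells are murine, so their RNA would be counted with that of the host. Among other cell types, Clu of the astrocyte list differed by 0.64 (0.40 to 0.88, adjusted p 0.145 by limma) while Gfap was at −0.19 (−0.48 to 0.10). Tubb3 was the only neuron gene tested, at 0.51 (0.02 to 0.99), and 6 of 10 neuron genes were under 0.1 RPKM in all 6 samples. Red blood cell genes summed to 5.35 to 7.52 RPKM with 7aaRGD and 1.37 to 5.28 RPKM with 7aaRAE. Of 4 tested endothelial and pericyte genes 3 had lower values and 1, Pecam1, an unadjusted p under 0.05, and of 4 stroma genes 2 had higher values and 1 an unadjusted p under 0.05, Serpinf1 at 0.58 (0.31 to 0.86). The part of these cells in the results above was not tested.

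Antigen presentation and the interferon-γ response lay slightly lower. Of 19 tested MHC class I and peptide-loading genes 16 were lower, with a median of −0.11, 1 at an unadjusted p under 0.05 (H2-Q4 at −0.22, −0.39 to −0.04), and all 19 intervals within 0.5 of 0. Members of this family share sequence, so reads may be split between them. The 12 MHC class II genes had a median of −0.10 and 0 at an unadjusted p under 0.05, with their regulator Ciita at −0.15 (−0.34 to 0.04). All 16 interferon-γ-induced GTPase genes were lower, while 58.3% of all genes were higher. Their median was −0.14, but it was 0.04 without RGD replicate 3. The members with the smallest p were Gm4951 at −0.42 (−0.67 to −0.17) and Gbp6 at −0.25 (−0.48 to −0.03). In the type I interferon list of 22 tested genes the median of 0.02 turned below 0 under both other scalings. Its members Oasl2 and Irf9 were at −0.10 (−0.34 to 0.13) and 0.06 (−0.08 to 0.19).

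Cytokine and co-stimulation genes showed few differences. Of 7 CXC chemokines 3 had higher and 4 lower values, and 2 had an unadjusted p under 0.05, Pf4 on the higher side and Cxcl13, a chemokine that draws B cells, on the lower side at 2.13, 2.16 and 2.46 RPKM with 7aaRGD against 3.92, 3.29 and 5.15 RPKM with 7aaRAE. Its groups did not overlap, at −0.64 (−0.93 to −0.36, adjusted p 0.210 by limma). Of 12 CC chemokines 9 had higher values, with a list median of 0.18, and 2 an unadjusted p under 0.05, Ccl6 at 0.39 (0.00 to 0.78) and Ccl5. Of 14 IL-1, TNF and IL-6 family genes 8 had higher values and 1 an unadjusted p under 0.05, Il12b at 0.42 (0.17 to 0.67), and the list median of 0.04 turned below 0 with median-of-ratios scaling. Of 12 co-stimulatory molecules 8 had higher values and 2 an unadjusted p under 0.05, Il12b and Cd80, the latter at 0.33 (0.01 to 0.65). Of 16 inhibitory ligands and receptors 12 had higher values, and 2 were higher and 2 lower at an unadjusted p under 0.05. Il18bp, the decoy receptor of IL-18, was at 42.9, 35.7 and 34.1 RPKM with 7aaRGD and at 46.2, 46.7 and 45.7 RPKM with 7aaRAE, or −0.30 (−0.50 to −0.09, adjusted p 0.530 by limma). NF-κB subunits and feedback genes had 0 of 15 at an unadjusted p under 0.05 and a median of −0.05. Of 20 immediate early genes 11 had lower values and 1 an unadjusted p under 0.05, Ier3 at −0.27 (−0.47 to −0.07).

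Genes of sterol synthesis mostly had higher values with 7aaRGD. Of 20 genes of cholesterol synthesis and efflux 17 were higher (58.3% of all genes), 6 of them at an unadjusted p under 0.05 (4.78% of all genes) with 0 lower at that p, and the median of 0.15 lay between 0.11 and 0.22 over the alternatives. Sqle, squalene epoxidase, was at 4.05, 5.47 and 4.54 RPKM with 7aaRGD and at 3.45, 2.87 and 2.66 RPKM with 7aaRAE, without overlap, at 0.51 (0.26 to 0.76, adjusted p 0.283 by limma). Sc5d, a sterol desaturase, differed by 0.22 (0.06 to 0.37). Glycolysis and hypoxia genes had lower values in 20 of 22 (58.3% of all genes had higher values), with 0 at an unadjusted p under 0.05, a median of −0.08 that was −0.0018 without RAE replicate 2, and Egln3 at −0.37 (−0.90 to 0.16).

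Genes of stress responses mostly had higher values with 7aaRGD. Heat shock chaperones were higher in 17 of 18 tested genes (58.3% of all genes), with a median of 0.15. That median became −0.02 without RGD replicate 2, the sample with the highest sum. Of these chaperones 1 had an unadjusted p under 0.05, Fkbp4 at 0.31 (0.01 to 0.61). ER stress genes were higher in 16 of 18, with a median of 0.08 and 2 at an unadjusted p under 0.05, Asns at 0.39 (0.11 to 0.68) and Herpud1 at 0.25 (0.05 to 0.45). Of 14 NRF2 and iron genes 1 had an unadjusted p under 0.05, the iron exporter Slc40a1 at 0.41 (0.14 to 0.67). Of 21 lysosomal genes 0 had an unadjusted p under 0.05, and all 21 intervals lay within 0.5 of 0. DNA replication and mitosis genes were higher in 18 of 22 with a median of 0.08, and Ccnb2 on the lower side was at −0.34 (−0.61 to −0.08). Of 9 glucocorticoid-responsive genes 1 had an unadjusted p under 0.05, Sgk1 at −0.33 (−0.54 to −0.11), and of 8 circadian clock genes 0 had an unadjusted p under 0.05.

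The genes that the study names for 7aaRGD were chosen against vehicle samples with NOISeq, while the comparison here is with 7aaRAE samples by limma. The 7aaRGD samples are the same, so the counts are not independent evidence. A gene without a difference here is also no repeat of the study's comparison. Of 25 genes, all tested, 16 were higher, 4 at an unadjusted p under 0.05, 5 were lower at that p, and 0 were called. Those higher were Fcrls, Nedd4, Cd9 and Cd80, and those lower were Arg1, Anpep, Pecam1, Pdcd1lg2 and Il18bp. Nedd4, a ubiquitin ligase, was at 2.21, 2.61 and 1.44 RPKM with 7aaRGD and at 1.16, 1.07 and 1.14 RPKM with 7aaRAE, or 0.52 (0.22 to 0.82, adjusted p 0.418 by limma). Its groups did not overlap. The other 16 had intervals that crossed 0, among them Il1b at −0.05 (−0.42 to 0.33), Cxcl10 at 0.02 (−0.50 to 0.54), Il4ra at 0.02 (−0.14 to 0.18) and Cd209a at 0.43 (−0.23 to 1.10).

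The genes that leaned with the peptide differed in how the tumor had placed them relative to naïve brain. Neither naïve nor vehicle samples enter the comparison of the peptides. Of the 453 genes higher with 7aaRGD at an unadjusted p under 0.05, 34.2% were more than 1 log2 unit higher in naïve than in vehicle samples, against 11.5% of all genes tested, and 15.5% were that much higher in vehicle than in naïve samples, against 15.9% of all genes. Of the 42 that were higher by 0.5 or more, 21 were under 1 RPKM in naïve mice, as were 8.18% of all genes. Of the 11 genes that were lower by 0.5 or more, 10 were under 1 RPKM there. Without a limit on size it was 20.3% of the 453 higher and 30.1% of the 156 lower genes. Of the 156 lower genes, 2.56% were more than 1 log2 unit higher in naïve than in vehicle samples, against 11.5% of all genes. A share of 49.4% was that much higher in vehicle than in naïve samples, against 15.9% of all genes. The median of naïve minus vehicle was 0.37 for the higher genes, −0.97 for the lower genes and 0.08 for all genes. Fcrls and Jam3 are examples of the former and Arg1 and Saa3 of the latter, while Thbs1, Sox10 and Serpina3n had higher values with 7aaRGD and averaged 5.33, 0.113 and 0.0314 RPKM in naïve mice, under their vehicle levels.

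In U87-MG tumors the same comparison gave no called gene. Of 9654 genes tested 0 had an adjusted p under 0.05 (0%; limma, smallest adjusted p 0.919), and 226 had an unadjusted p under 0.05 (2.34%), 119 of them higher (1.23%) and 107 lower (1.11%). The sign was positive in 48.4% of genes, and the groups did not overlap in 6.44%. Intervals were wider there, with a median half-width of 0.289 and 74.2% of them within 0.5 of 0. Of the 6 genes called in GL261, Ttr differed by 0.51 (−0.83 to 1.85) and Saa3 by −0.60 (−2.08 to 0.89) in U87-MG, both in wide intervals. Jam3 was at 0.08, Adamts1 at 0.09 and Maged1 at −0.01, and Serpina3n was under the filter. Whether these differences are unlike those in GL261 was not tested.

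In U87-MG, the ligand genes Thbs1, Tgfbi and Spp1 differed by 0.51, 0.61 and −0.22. The 10 ligands tested there had a median of −0.06 (0.06 with no filter), 0 at an unadjusted p under 0.05 and 3 of 10 intervals within 0.5 of 0, while the integrin subunits had a median of 0.05. Infiltrating monocyte genes had a median of 0.59 there, with 16 of 17 higher and 2 at an unadjusted p under 0.05. Neutrophil genes had a median of 0.48, which was −0.0013 without RGD column 3. Of 11 MHC class II genes tested there 0 were called. At an unadjusted p under 0.05, 4 were higher (1.23% of U87-MG genes) and 3 lower (1.11%). In 7 of them the groups did not overlap (6.44% of U87-MG genes). Their differences ran from −1.63 to 0.98, with a median of 0.49 (0.17 with no filter). Across the 8972 genes tested in both models, which share no samples, the differences had a Pearson correlation of 0.0896 and the same sign in 51.8% of genes. Of these 8972 genes, 510 had an unadjusted p under 0.05 in GL261 and 204 in U87-MG. The 29 in common were 5.69% of those in GL261, where 2.34% of all U87-MG genes had such a p. They were 14.2% of those in U87-MG, where 6.43% of all GL261 genes had such a p. Of the 29 genes 16 had the same sign. Among the named genes, the groups did not overlap in the same direction in both models for Ltb (0.52 and 0.95) and S100a10 (0.21 and 0.59), which were higher (3.44% of U87-MG genes), and for Adam10 (−0.13 and −0.23) and Lamp2 (−0.08 and −0.21), which were lower (3% of U87-MG genes).

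**Figure D5:**
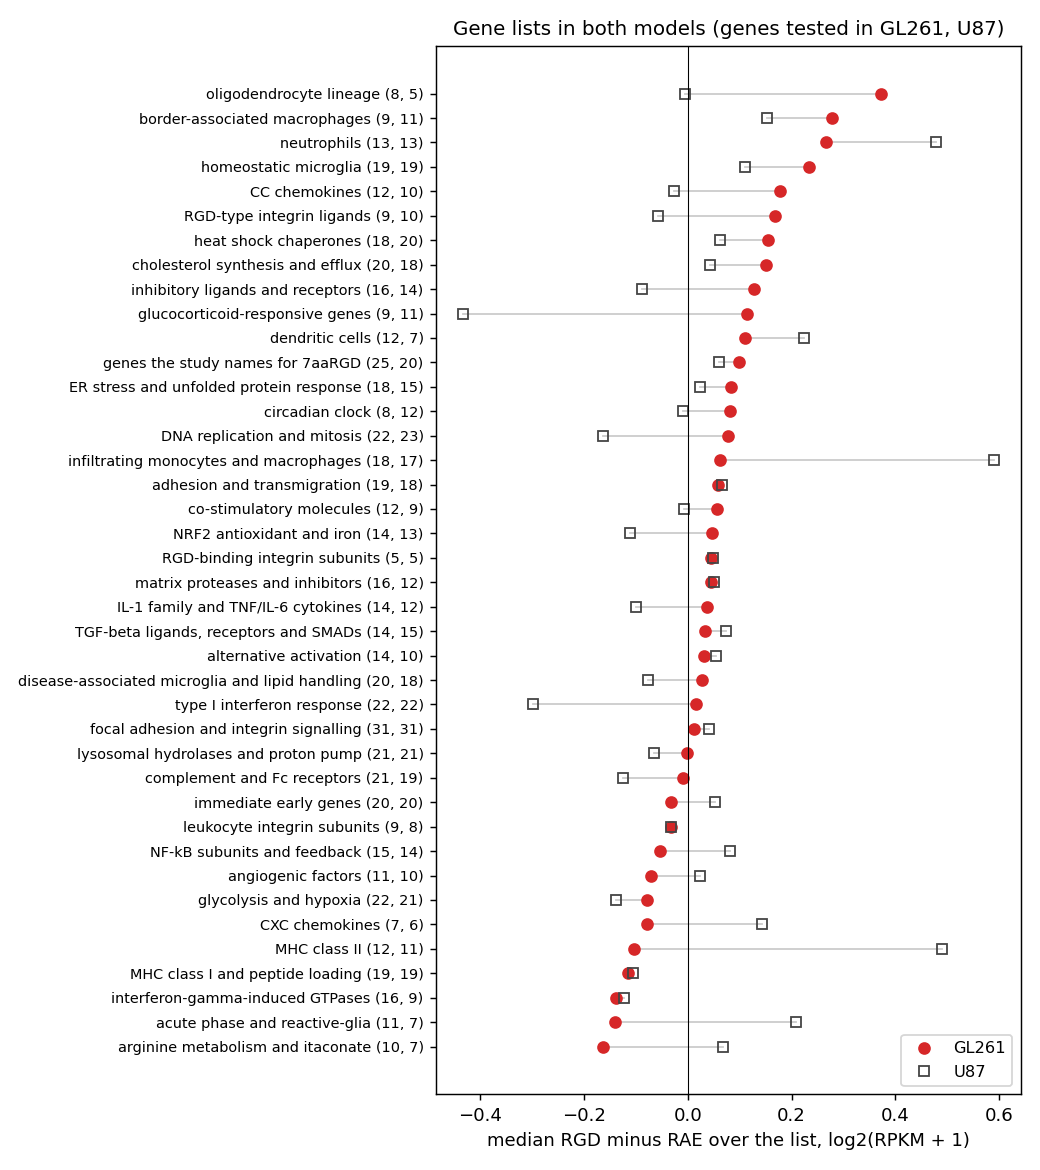
Median difference between 7aaRGD and 7aaRAE (log2(RPKM + 1), horizontal axis) of the 40 gene lists with at least 5 genes tested in both models, with filled circles for GL261, open squares for U87-MG and the number of genes tested in each model in parentheses. In GL261 the medians run from −0.16 for arginine metabolism and itaconate to 0.37 for the oligodendrocyte lineage, and in U87-MG that of infiltrating monocytes and macrophages is at 0.59.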

How the data were processed

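Poly-A RNA of CD11b+ cells was sequenced from stranded libraries. Per the labels and the study's methods, Trimmomatic, STAR (mm10) and HTSeq 0.11.1 were the tools the authors used for trimming, alignment and counting; the normalization is not given in the sources used here. The signal values deposited were read as RPKM + 2: genes without signal hold exactly 2, and what remains, weighted by exonic length, sums to almost equal totals across samples. In GL261 between 6.58% and 14.6% of values were under that constant, so they had been altered after normalization; read numbers cannot be recovered, depth is unknown and no count test was used.

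From these values 2 was subtracted, negative values were set to 0, and log2(RPKM + 1) of protein-coding genes (GENCODE release 21) with a mean of at least 1 RPKM over the 6 samples was fitted with limma 3.58.1 in R 4.3.3 (eBayes with trend, Benjamini-Hochberg over all genes, two-sided, threshold 0.05), separately in GL261 and U87-MG. The fit was checked on simulated data. The filter used the mean over both peptide groups, so a gene low in 1 group could pass through the other. Intervals are 95% intervals of the moderated test. Replicate numbers were not used as pairs in the main fit, and whether they pair the samples is not known.

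The comparison, the gene lists and the rule for named genes were chosen with earlier results of these data known, and 4 of the 50 lists (choroid plexus, neural progenitor, stroma, acute phase) after their genes' values had been seen. Named were called genes (up to 10 a direction), filled to at most 10 by the smallest p among genes with groups that do not overlap, a mean of at least 5 RPKM and a difference of at least 0.5, the 3 members of each list with the smallest p, all integrin subunits and ligands, and the study's own genes. Alternatives changed the pseudocount, filter, scaling, samples and variance model.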

Additional observations from a re-analysis of the deposited data

Results flagged for a closer look

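Tns3, which encodes a tensin of focal adhesions, had groups that did not overlap in both models but in opposite directions. In GL261 it was at 33.1, 32.3 and 28.2 RPKM with 7aaRGD and at 34.1, 35.3 and 35.3 RPKM with 7aaRAE, a difference of −0.16, and in U87-MG the difference was 0.16. The difference between the models was not tested, and the GL261 interval ran from −0.34 to 0.01. Of 130 named genes tested in both models it was the only 1 with this pattern. Over all genes tested, the groups did not overlap on the lower side in 3.54% in GL261 and on the higher side in 3.44% in U87-MG. The named genes were in part picked for a small p or for groups that do not overlap in GL261.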

How the results depend on the processing

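The count of 6 called genes in GL261 did not hold under most settings. It was 0 with a pseudocount of 0.1 or 5, with median-of-ratios or upper-quartile factors, with all rows of the table, with the vehicle samples added to the fit and, chosen after seeing the data, without the genes of the 4 added lists; 521 to 638 genes had an unadjusted p under 0.05 in these fits. It was 2 with no filter (0 of the 6 among them) or with a mean of at least 5 RPKM. With 1 residual degree of freedom less it was 3, of which 2 were among the 6. It was 1 with a difference of at least 1 required and 13 at an adjusted p under 0.1. Leaving out 1 sample gave 0 to 1: 1 without RGD replicate 3 (none of the 6) or RAE replicate 2 (Saa3), and 0 without any of the other 4. It was 4 on log2 of the deposited value, with vehicle and naïve samples added or with no trend, and 6 with a robust fit or no value set to 0. The cause was not tested. With the replicate number as a block 4 genes were called, 2 of them among the 6. Residuals of same-numbered samples correlated at −0.468, 0.12 and 0.0686. The values had been altered after normalization, so these correlations cannot decide whether the numbers pair the samples. No paired analysis was possible for U87-MG because its columns carry no replicate numbers. In U87-MG the count of 0 became 1 with all rows of the table and 1 without RGD column 2 (range 0 to 1). The number of lists with a median above 0 stayed within 1.5 times of 34 of 50 in GL261 and 29 of 49 in U87-MG. Of the named genes 148 of 161 kept their sign in every setting in GL261 and 64 of 130 in U87-MG, and 24 of 50 list medians did in GL261 and 17 of 49 in U87-MG. Values near 1 RPKM are limited by the unknown depth and by the alteration after normalization.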

Other observations

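Emp1, a membrane protein of epithelial and other cells, was at 7.20, 7.98 and 10.2 RPKM with 7aaRGD and at 3.82, 4.91 and 5.17 RPKM with 7aaRAE, a difference of 0.74 (95% interval 0.44 to 1.05, adjusted p 0.160 by limma). All 7aaRGD samples were above all 7aaRAE samples. Gm15056 was at 4.83, 2.70 and 2.66 RPKM with 7aaRGD and at 7.44, 6.94 and 10.6 RPKM with 7aaRAE, and its difference of −1.10 (−1.57 to −0.63, adjusted p 0.182) was the largest in size among the lower genes named here.

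Acute-phase and reactive-glia genes, listed after their values had been seen, held 2 of the 6 called genes on opposite sides, Saa3 lower and Serpina3n higher, and Lcn2, another acute-phase gene, was at 1.41, 1.61 and 2.31 RPKM against 1.10, 0.944 and 1.64 RPKM, or 0.32 (−0.02 to 0.65). The 11 tested genes of that list had a median of −0.14. Without Ttr, the other choroid plexus genes still summed to 10.6 to 15.5 RPKM with 7aaRGD and to 3.41 to 5.99 RPKM with 7aaRAE.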
